A study of Drosophila melanogaster with 8 samples.

Results

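Mitochondrial ribosomal protein genes were compared between the fruit fly (Drosophila melanogaster) strains Dahomey and Oregon R, in adult females. They were taken as every gene ID of the deposited table whose symbol begins with mRpL or mRpS and a digit, which gave 71 of 14701 gene IDs. By the letter L or S of the symbol, 47 were counted for the large subunit and 24 for the small one. RNA came from heads and thoraxes of mated flies aged 10 days and kept at 25 °C, with 4 libraries of 60 flies for Dahomey and 4 libraries of 60 flies for Oregon R. The labels give no transgene, mutation or treatment for either strain. The data were the authors' DESeq2 comparison, which lists for each gene a mean normalized read count, a log2 fold change and the standard error (SE) of it, and p-values before and after adjustment. Values of single libraries were not used here, so errors are those that the authors listed as SE, and library depth is unknown. Because the table's name puts Dahomey before Oregon R, a positive fold change was taken to mean higher in Dahomey; the columns do not say so, and the opposite order would turn every direction here. In RNA from whole heads and thoraxes, fewer cells of a type and less RNA per cell cannot be told apart.

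The mitochondrial ribosome translates the few proteins encoded by the mitochondrial genome, which are core subunits of the respiratory chain and of ATP synthase. Its RNAs come from that genome, while its proteins are encoded in the nucleus, made in the cytosol and imported. Part of the proteins have counterparts in the bacterial ribosome and the others are found only in mitochondria. Flight muscle, which fills much of the thorax, is rich in mitochondria. In the fly, tko, which encodes a small-subunit protein under another symbol, is known for mutants with bang-sensitive seizures, and mRpL12 is known as a gene needed for cell growth driven by Cyclin D.

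Most of the 71 genes were not called, and the calls that were made were small in size and mostly lower in Dahomey. At the authors' DESeq2 adjusted p under 0.05, 5 genes were higher in Dahomey, 16 were lower and 50 did not pass. The share called was 29.6%, against 29.4% of all 13395 rows with a p-value, so the genes were called about as often as any other row. By direction, 7.04% of the genes were higher and 22.5% lower in Dahomey, against 14.7% higher and 14.7% lower over all rows. The median log2 fold change of the 71 genes was -0.063, beside -0.0056 over all rows with a p-value, and 52 of the 71 had a negative value. All 71 had a p-value, with mean normalized counts between 831 and 8183. A 2-fold difference was reached by 0 of the 71 genes, and a 1.5-fold difference by 1, mRpL18.

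**Figure D1:**
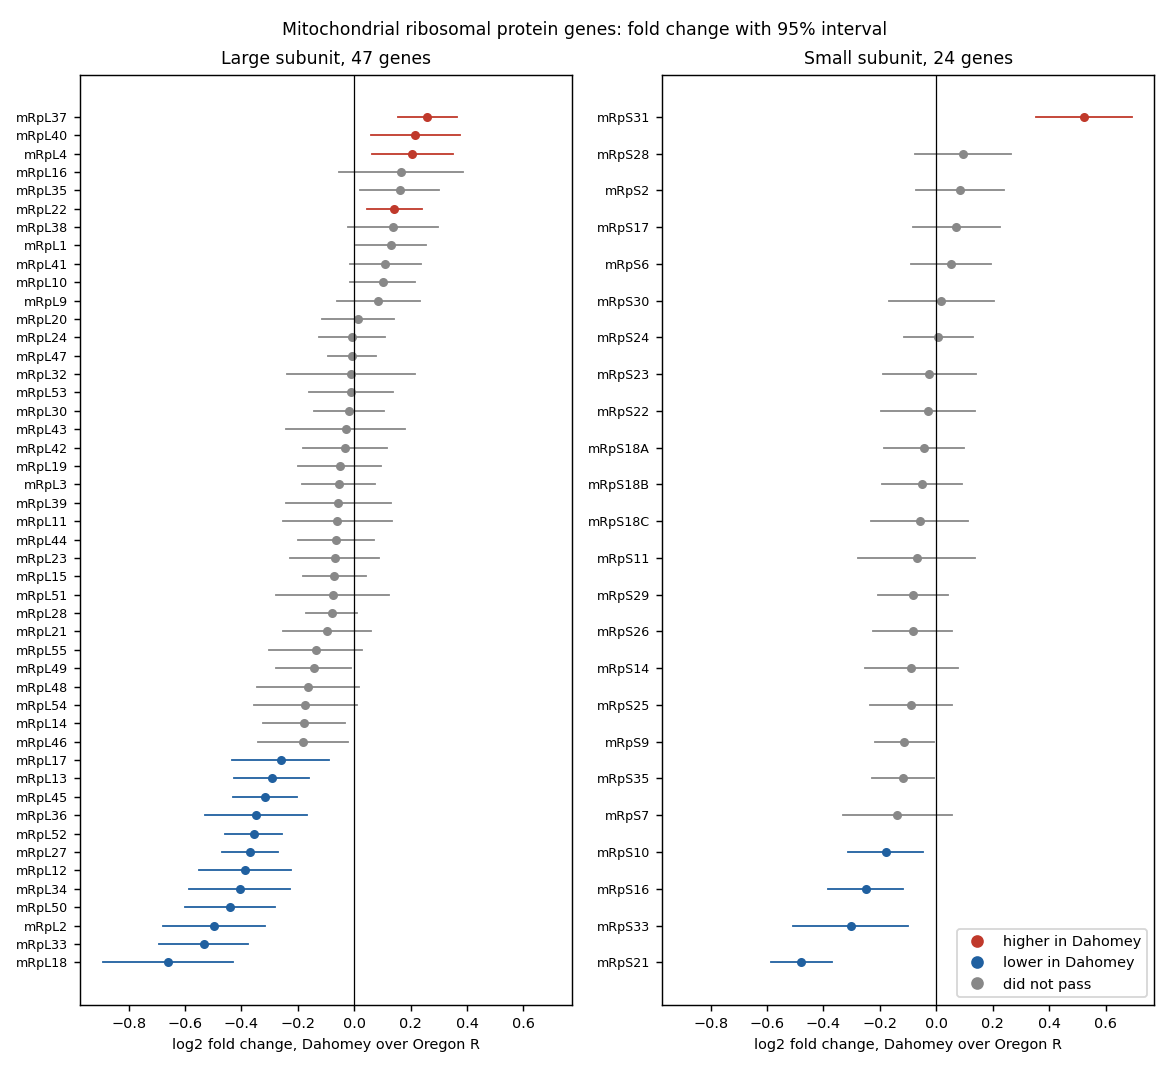
Log2 fold change (Dahomey over Oregon R, x axis) of each of the 47 large-subunit genes (left) and 24 small-subunit genes (right), with points for the deposited value and lines for its 95% interval from the deposited SE. Red marks the 5 genes higher in Dahomey, blue the 16 lower and grey the 50 that did not pass; mRpL18 lies lowest and mRpS31 highest.

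Of the genes lower in Dahomey, mRpL18 had the largest fold change. It encodes a protein that in mammals sits in the central protuberance, the crest of the large subunit. Its mean normalized count implied for each strain by the deposited mean and fold change was 1905 in Dahomey and 3011 in Oregon R, and the authors' deposited table gave a log2 fold change of -0.66 ± 0.12 (SE; DESeq2 adjusted p = 2.50e-07). Next came mRpL33, a small protein with a bacterial counterpart, with implied means of 1058 in Dahomey and 1531 in Oregon R; the authors' deposited table had it at -0.53 ± 0.081 (DESeq2 adjusted p = 5.94e-10). In bacteria the counterpart of mRpL2 binds ribosomal RNA next to the peptidyl transferase centre, where peptide bonds form. The authors' deposited table had mRpL2 at -0.50 ± 0.092 (DESeq2 adjusted p = 7.12e-07), with implied means of 2413 in Dahomey and 3405 in Oregon R. For mRpS21, on the small-subunit platform, the authors' deposited table gave -0.48 ± 0.055 and the smallest DESeq2 adjusted p of all 71 genes, 1.43e-16. Its implied means were 2490 in Dahomey and 3470 in Oregon R. These 4 genes lie on arms 2R, X, 3L and 3R, so the largest differences were not from one chromosome.

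A further 9 large-subunit genes were lower in Dahomey with a smaller fold change. The mitochondrion-specific mRpL50 stood at -0.44 ± 0.082 in the authors' deposited table (DESeq2 adjusted p = 8.50e-07). In mRpL34, a very short protein in bacteria, the log2 fold change was -0.41 ± 0.091 in the authors' deposited table, from the lowest mean of all 71 genes, 831. The protein of mRpL12 forms the mobile stalk that recruits translation factors, and the authors' deposited table gave it -0.39 ± 0.083 (DESeq2 adjusted p = 2.93e-05), with implied means of 2161 in Dahomey and 2826 in Oregon R. In bacteria the counterpart of mRpL27 reaches toward the peptidyl transferase centre. The authors' deposited table had it at -0.37 ± 0.051, with implied means of 2835 in Dahomey and 3664 in Oregon R, and a DESeq2 adjusted p of 7.16e-12, the second smallest of the 71. The mitochondrion-specific mRpL52 followed at -0.36 ± 0.051 in the authors' deposited table (DESeq2 adjusted p = 7.21e-11), then mRpL36 at -0.35 ± 0.092, which rested on a mean of 897. In mammals the protein of mRpL45 lies at the mouth of the peptide exit tunnel, close to the inner membrane. The authors' deposited table gave mRpL45 -0.32 ± 0.058 (DESeq2 adjusted p = 7.12e-07), from the highest mean among the called genes, 4899. The last of the 9 large-subunit genes were mRpL13 and mRpL17, at -0.29 ± 0.068 and -0.26 ± 0.087 in the authors' deposited table.

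Among small-subunit genes, 3 more were lower in Dahomey. In the authors' deposited table mRpS33, whose protein belongs to the head of the small subunit in mammals, had -0.30 ± 0.10 (DESeq2 adjusted p = 0.0150). For mRpS16 the authors' deposited table gave -0.25 ± 0.068 (DESeq2 adjusted p = 0.00125). The smallest of the lower calls was mRpS10, at -0.18 ± 0.068 in the authors' deposited table (DESeq2 adjusted p = 0.0296), with implied means of 1692 in Dahomey and 1917 in Oregon R.

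Of the 5 genes higher in Dahomey, mRpS31 stood apart in size. It encodes a mitochondrion-specific protein of the small-subunit head. Its implied mean was 4635 in Dahomey and 3225 in Oregon R, a 1.44-fold difference, and the authors' deposited table had a log2 fold change of 0.52 ± 0.087 (DESeq2 adjusted p = 2.41e-08). The second, mRpL37, was mitochondrion-specific too, at 0.26 ± 0.054 in the authors' deposited table (DESeq2 adjusted p = 1.25e-05), with implied means of 3124 in Dahomey and 2611 in Oregon R. The other 3 passed less clearly. In mammals the protein of mRpL40 is part of the central protuberance, and the authors' deposited table gave it 0.22 ± 0.081 (DESeq2 adjusted p = 0.0282). The counterparts of mRpL4 and mRpL22 line the peptide exit tunnel in bacteria; the authors' deposited table had them at 0.21 ± 0.073 (DESeq2 adjusted p = 0.0200) and 0.14 ± 0.050 (DESeq2 adjusted p = 0.0179). The fold change of mRpL22 was the smallest called among the 71, with an SE near the low end of their range.

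**Figure D2:**
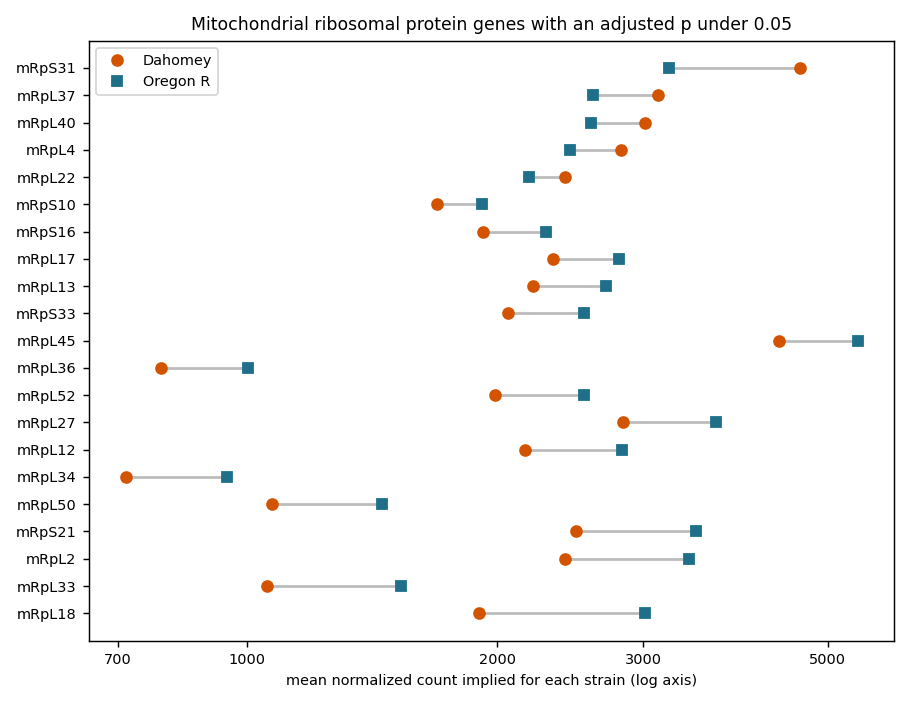
Mean normalized count implied for each strain (x axis, log scale) for the 21 genes with a DESeq2 adjusted p under 0.05, computed from the deposited mean and fold change, with circles for Dahomey and squares for Oregon R. In 16 genes the Dahomey circle lies left of the Oregon R square, and in the top 5 rows it lies to the right.

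The 50 genes that did not pass lay close to no difference. Their log2 fold changes ran between -0.18 and 0.16, and the 95% interval from the deposited SE stayed within 1.5-fold in all 50 and within 1.2-fold in 37. Of these genes, 7 had an unadjusted p under 0.05. Nearest to the threshold was mRpL14, at -0.18 ± 0.074 (DESeq2 adjusted p = 0.0545) in the authors' deposited table, followed by mRpL35 at 0.16 ± 0.072 (DESeq2 adjusted p = 0.0759) and mRpL46 at -0.18 ± 0.081 (DESeq2 adjusted p = 0.0809). The genes mRpS9, mRpS35, mRpL49 and mRpL1 had adjusted p between 0.0949 and 0.107 in the authors' deposited table. The fly has a trio of genes related to bacterial S18. They had like values in the authors' deposited table, mRpS18A -0.044 ± 0.073, mRpS18B -0.051 ± 0.073 and mRpS18C -0.058 ± 0.088. In mammals the counterparts of mRpS18A and mRpS30 sit in the large subunit despite their names; mRpS30 had 0.018 ± 0.095 in the authors' deposited table.

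Both subunits and both evolutionary classes had medians close to each other. Of 47 large-subunit genes 4 were higher in Dahomey (8.51%) and 12 lower (25.5%), against 14.7% of all rows in each direction. The median log2 fold change of these 47 was -0.063. Of 24 small-subunit genes 1 was higher (4.17%) and 4 were lower (16.7%), with a median of -0.064. These 24 were taken by the S of the symbol, so they include mRpS18A and mRpS30. By the number in the symbol, and for mRpL47, mRpL55, mRpS24 and mRpS28 by their mammalian counterparts, 45 genes have a bacterial counterpart. Of these 45 genes 2 were higher in Dahomey (4.44%) and 12 lower (26.7%). Of the 26 mitochondrion-specific genes 3 were higher (11.5%), among them mRpS31 and mRpL37, and 4 were lower (15.4%). The median of these 26 was -0.069, against -0.060 in the genes with a bacterial counterpart. The differences between subunits and between classes were not tested.

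No region of the ribosome had all of its genes called. In the stalk that recruits translation factors, mRpL12 was lower in Dahomey, whereas mRpL10, which anchors the stalk, had 0.10 ± 0.059 and mRpL11, at its base, had -0.060 ± 0.099 in the authors' deposited table. Around the peptidyl transferase centre mRpL2 was lower, as was mRpL27, which is counted with the central protuberance; mRpL3 and mRpL16 did not pass, at -0.055 ± 0.066 and 0.16 ± 0.11 in the authors' deposited table. The exit tunnel and its rim held calls of both directions, mRpL4 and mRpL22 higher and mRpL17 and mRpL45 lower, while mRpL24 and mRpL47 had -0.0078 ± 0.059 and -0.0081 ± 0.044 in the authors' deposited table. In the central protuberance mRpL18 and mRpL27 were lower and mRpL40 was higher; 4 of its 7 genes, mRpL38, mRpL46, mRpL48 and mRpL55, did not pass. Of 9 genes of the small-subunit head, mRpS31 was higher, mRpS33 and mRpS10 were lower and 6 did not pass. On the platform mRpS21 was lower, and mRpS6, mRpS11 and mRpS18C did not pass. The assignment to regions follows bacterial and mammalian ribosomes, and was not checked for the fly.

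The genes with lower calls had a shorter median exon length than those with higher calls. Exon length, the bases covered by any exon of a gene in the BDGP6 annotation, had a median of 0.704 kb in the 16 genes lower in Dahomey, 1.01 kb in the 5 higher and 0.795 kb in the 50 others. Of the 24 shortest genes, up to 0.705 kb, 0 were higher in Dahomey, by DESeq2 adjusted p or by an unadjusted p under 0.05, and 8 were lower by adjusted p (33.3%), among them mRpL33, mRpL34 and mRpS21. Of the 23 genes of middle length 1 was higher (4.35%) and 4 were lower (17.4%), and of the 24 longest, over 0.922 kb, 4 were higher and 4 lower, 16.7% each. Among all rows with a mean in the range of these genes, these genes included, 15.9% of the short ones were higher in Dahomey and 28.3% lower. In the middle range of length 16.9% of those rows were higher and 29.7% lower, and of the long ones 16.6% were higher and 17.0% lower. Lower calls were thus more frequent in both the short and the middle rows than in the long ones, while in the mitochondrial ribosomal genes the middle range had a share near that of the long one; these differences were not tested. Spearman's rho between fold change and exon length was 0.27 over the 71 genes and 0.10 over 5522 rows of like mean; all points share the same libraries. The part of transcript length in the members' calls was not tested.

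Shares of calls also differed between the whole table and rows nearer to these genes in mean and length. Rows with a mean in the range of the 71 genes were called in 34.7% of cases, 16.6% higher and 18.2% lower in Dahomey. With exon length also within the range of these genes, between 0.327 and 2.08 kb, 39.4% of 2612 rows were called, 17.6% higher and 21.8% lower, against 7.04% higher and 22.5% lower for the mitochondrial ribosomal genes. The median exon length was 0.783 kb for the mitochondrial ribosomal genes and 1.36 kb for those rows, so the shares are not matched for length. The median log2 fold change of those rows was -0.034. A difference of at least 1.5-fold was seen in 10.6% of them and in 1 of the 71 genes, or 1.41%. The SE of each gene was set against the median SE of the 200 rows nearest to it in mean, and this ratio had a median of 0.86 over the 71 genes and ran between 0.55 and 1.5.

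**Figure D3:**
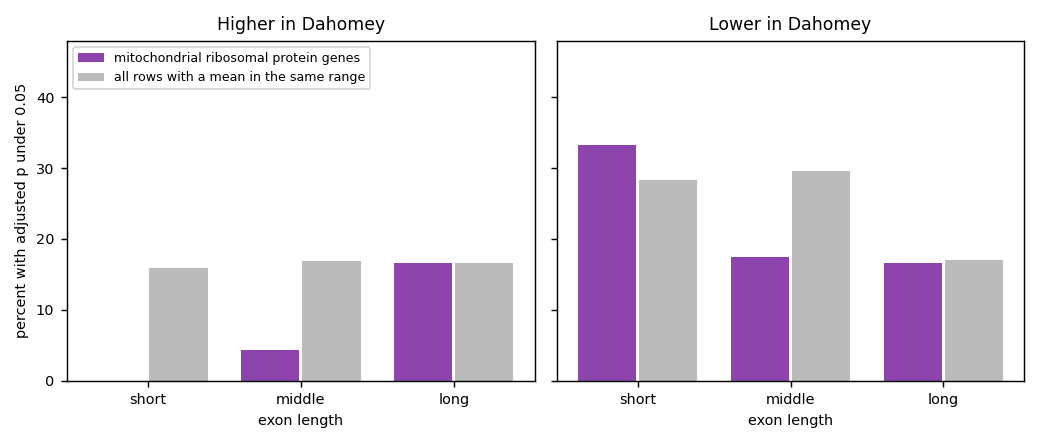
Percent of genes with a DESeq2 adjusted p under 0.05 (y axis) that were higher (left) or lower (right) in Dahomey, by exon length (x axis; short, middle and long, cut so that each holds 23 or 24 of the mitochondrial ribosomal genes), for these genes (purple) and all rows with a mean in the same range (grey). Among short genes 33.3% of the purple and 28.3% of the grey genes were lower, and 0% of the purple and 15.9% of the grey were higher; in the middle range 17.4% of the purple and 29.7% of the grey were lower.

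The abundance of the transcripts, averaged over both strains, differed more between genes than any gene differed between strains. Mean normalized count per kb of exon ran between 1082 for mRpL21 and 8911 for mRpL53, an 8.23-fold range, with quartiles at 2066 and 3685 and a median of 2728. All exon bases of mRpL53 also belong to CG33155, a gene on the same strand, so its level is uncertain. Next in level per kb were mRpS7 at 7583 and mRpL28 at 6921, and near the low end mRpL11 had 1379 and mRpL19 had 1584. None of these genes passed: the authors' deposited table had mRpL53 at -0.012 ± 0.076, mRpS7 at -0.14 ± 0.099, mRpL28 at -0.080 ± 0.046, mRpL21 at -0.097 ± 0.080, mRpL11 at -0.060 ± 0.099 and mRpL19 at -0.052 ± 0.076. The median level per kb was 2800 for large-subunit and 2726 for small-subunit genes, so the subunits had close levels. Spearman's rho between level per kb and fold change was -0.052 over the 71 genes, a description over genes that share all libraries.

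**Figure D4:**
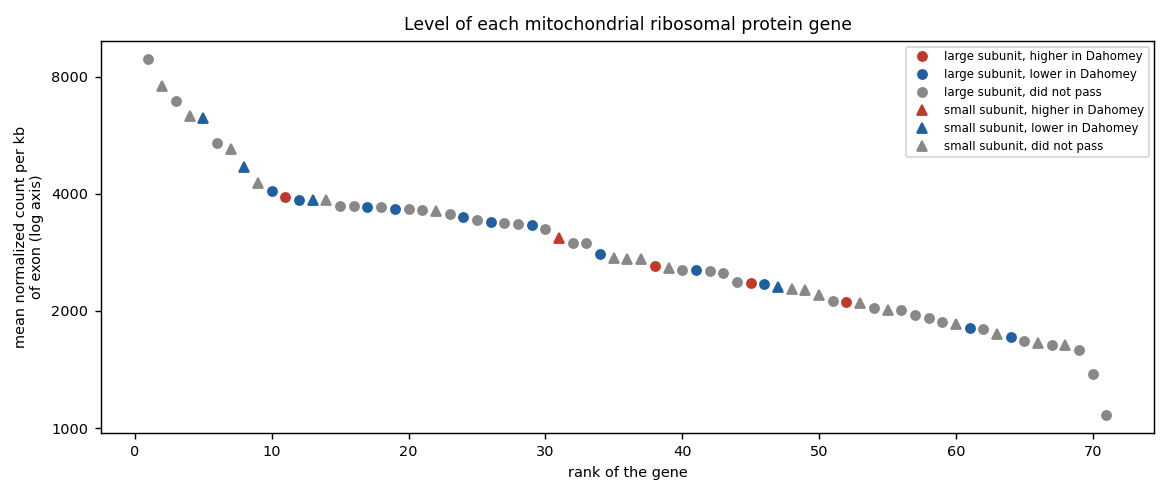
Mean normalized count per kb of exon over both strains (y axis, log scale) for the 71 genes in order of level (x axis), with circles for the large and triangles for the small subunit. Red marks genes higher in Dahomey, blue lower and grey not passed; called genes stand among the others along the curve between 1082 and 8911.

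Neighbours of the called genes passed about as often as rows of the whole table. By the order of genes in the BDGP6 annotation, the 21 called genes had 42 adjacent genes in the table; 6 of these (14.3%) passed in the same direction as the called gene, 5 (11.9%) in the opposite one and 31 did not pass or had no p-value, beside 14.7% of all rows in each direction. Among the 6, CG13313 beside mRpL12, CG7550 beside mRpL36 and CG34316 beside mRpS10 lie on the same strand as the called gene. They had -1.49 ± 0.28, -0.43 ± 0.099 and -0.18 ± 0.066 in the authors' deposited table, CG13313 from a mean of 164. In 10 of the 71 genes more than 10% of the exon bases overlap exons of another gene, and 3 of the 10 were called, mRpS21, mRpL13 and mRpL17. Their partners had log2 fold changes of -0.33 ± 0.25 for CG8870, on the strand opposite to mRpS21, -0.065 ± 0.045 for CG10602, on the same strand as mRpL13, and -0.029 ± 0.20 for CG34263, opposite to mRpL17, in the authors' deposited table. None of the 3 partners passed. The sources used here do not give how strand and shared reads were counted, so the values of these genes are uncertain.

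Other parts of the mitochondrial translation system also gave calls of both directions. The small-subunit protein genes tko and bonsai, which the symbol rule does not reach, did not pass, at 0.17 ± 0.098 and -0.032 ± 0.051 in the authors' deposited table. The ribosomal RNAs of the mitochondrial ribosome had no p-value; the authors' deposited table had mt:lrRNA at -0.070 ± 0.15 and mt:srRNA at 0.29 ± 0.42. Of 10 translation factor genes 2 were higher and 1 was lower. In the authors' deposited table mRRF1, which encodes the factor that recycles ribosomes after termination, had 1.15 ± 0.084 and mIF2, an initiation factor gene, had 0.58 ± 0.071, while mEFTu2, an elongation factor gene, had -0.40 ± 0.061. Of 16 genes for mitochondrial aminoacyl-tRNA synthetases and the related Slimp, 2 were higher and 3 lower, with AsnRS-m at 0.53 ± 0.11 and SerRS-m at 0.17 ± 0.066, against LeuRS-m at -0.29 ± 0.052 and ValRS-m at -0.44 ± 0.11 in the authors' deposited table. Genes of mitochondrial RNA and transcription gave 2 higher and 4 lower of 17. The authors' deposited table had scu, which encodes a dehydrogenase that is also a subunit of mitochondrial RNase P, at 0.47 ± 0.070 and mtTFB1, which encodes a ribosomal RNA methyltransferase, at 0.36 ± 0.077. In the other direction the authors' deposited table had SLIRP2 at -0.45 ± 0.10 and rswl, another RNase P subunit gene, at -0.20 ± 0.073. The share called was 30% for translation factors, 31.25% for the synthetase list and 35.3% for RNA and transcription, against 29.4% of all rows.

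Outside translation, the lists differed in median and in the share of calls. The share called was 38.5% for import genes and 12.5% for mitochondrial chaperones and proteases, against 29.4% of all rows. It was 49.4% for the nuclear oxidative phosphorylation list and 76.7% for the cytosolic ribosomal list. Of 13 import genes with a p-value 0 were higher, by DESeq2 adjusted p or by unadjusted p, and 5 were lower, with Tom7 at -0.25 ± 0.063 and Tom40, the channel of the outer membrane, at -0.23 ± 0.081 in the authors' deposited table. Another of the 5, Tim13, rested on a mean of 5.05. The Tim17 genes with a p-value, none of which passed, had means between 2.09 and 70.3, where a small difference could hardly be called. Tim17b and Tim23 had a mean of 0 and no p-value, so the import counts leave them out. Whether that 0 reflects expression or how reads were counted is unknown. Of 8 mitochondrial chaperone and protease genes 1 was lower, Roe1, at -0.18 ± 0.057 in the authors' deposited table, and of 4 genes for mitochondrial DNA maintenance 0 passed by DESeq2 adjusted p and 1, PolG2, had an unadjusted p under 0.05. The list of nuclear oxidative phosphorylation genes, those of succinate dehydrogenase included, had 3 higher and 38 lower of 83. Its median log2 fold change was -0.19. This list includes paralogs with an added L in the symbol, some with very low means, such as UQCR-14L at 0.11. Of these paralogs ND-51L2, COX6AL2 and COX7AL2 were lower, at means of 21.6, 431 and 31859. The list of cytosolic ribosomal protein genes, which includes genes with -like symbols, had 65 higher and 1 lower of 86 and a median of 0.29. The lower call was RpL7-like, at -0.24 ± 0.079 in the authors' deposited table. The median of -0.063 for mitochondrial ribosomal genes lay between the medians of the oxidative phosphorylation and cytosolic lists. The differences between lists were not tested, and all lists come from the same 8 libraries.

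**Figure D5:**
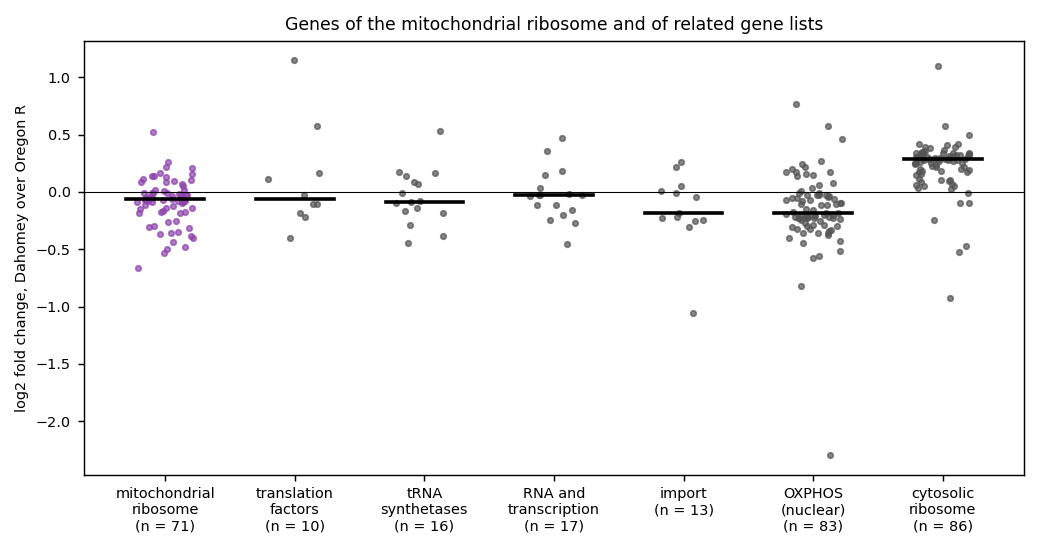
Log2 fold change (Dahomey over Oregon R, y axis) of each gene with a p-value, by gene list (x axis), with a black line for the median of each list. The 71 mitochondrial ribosomal genes have a median of -0.063. The 83 genes of the nuclear oxidative phosphorylation list, paralogs with an added L in the symbol included, have -0.19. The 86 genes of the cytosolic ribosomal list, -like genes included, have 0.29.

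Tissue markers were present for head and thorax, and markers of other tissues were present as well. The means of Mhc, the muscle myosin gene, and elav, a neuron gene, were 252776 and 1765 in the authors' deposited table. Of 6 flight-muscle markers that had a p-value, up and Mhc were higher in Dahomey and 2 were lower (TpnC4 and fln), with a median of 0.0091. That median leaves out Act88F, a further flight-muscle marker, which had no p-value and a log2 fold change of 1.25 ± 0.16 in the authors' deposited table. Of 4 neuron markers with a p-value 1 passed, Syt1, which was lower. A further neuron marker, Rdl, had no p-value and -0.079 ± 0.18 in the authors' deposited table. Of 5 photoreceptor markers 2 were lower, trp and norpA. All 5 had a negative log2 fold change, with a median of -0.20. Of 4 fat-body markers apolpp and Yp1 were higher, Fbp1 did not pass at a mean of 11.4, and Lsp2 had no p-value and a log2 fold change of -1.91 ± 0.39 in the authors' deposited table. Of 4 midgut markers 3 had a p-value and were lower, with a median log2 fold change of -6.47. The 6 eggshell genes, which mark ovary, had no p-value and means between 913 and 6166 in the authors' deposited table. The ovary germline gene osk had a mean of 11153 and no p-value there, and bam, the germline gene with a p-value, did not pass. The part of these tissues in the differences of the mitochondrial ribosomal genes was not tested.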

How the data were processed

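Per the labels' protocols, total RNA was isolated on columns for all samples at once, and poly(A) libraries were made with a TruSeq kit. The submitters' processing notes name bcl2fastq, FastQC, TopHat2 2.0.7, DESeq2 and the build BDGP5; the counting program, its strand handling and the annotation were not given in the sources used here. Per the file headers, the authors deposited a mean (a signal on the scale of normalized counts), a log2 fold change with its SE, and a p-value before and after adjustment. A 2-sided Wald p computed from fold change and SE differed from the deposited p-value by at most 4.1e-15. Precision rests on that SE, which ran between 0.044 and 0.12 for the members; the labels do not say whether libraries of a strain were separate cultures, and a p-value then reflects just the spread among these libraries, which may be technical.

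The table held 14944 rows. Symbols came from a table of gene IDs, which matched 14367 of 14701 IDs; of 73 symbols fitting the rule, 2 (mRpS5 and mRpS34) had an ID outside the table and were not analysed here. Each of the 71 members stood on 1 row and 0 shared all values with another ID. Implied strain means assume that the deposited mean weights both strains equally. Exon lengths, arms, overlaps and gene order came from the BDGP6 annotation, by gene ID. The members, lists and tests were chosen with earlier results of these data known. Members named with full values were the called ones, the highest and lowest levels per kb and the mRpS18 genes; other members, the regions of the ribosome, the length comparison and neighbours were chosen after values were seen, and the synthetase list was narrowed then to leave out the teneurin gene Ten-m. Up to 2 higher and 2 lower genes of related lists were named by smallest p. A planned search of promoters for motifs was not run. The Wald and Benjamini-Hochberg steps were tested on data simulated with the deposited SE, which checks the calculation but cannot check that SE. Python 3.11.15 with numpy 2.4.6, pandas 2.3.3, scipy 1.17.1 and matplotlib 3.10.9 was used.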

Additional observations from a re-analysis of the deposited data

How the results depend on the processing

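No paired analysis was possible because the table holds no values per library; for the same reason leaving out each library was not run. With 16 genes lower, 5 higher and 21 called in all as reported, a DESeq2 adjusted p under 0.01 left 2 higher, and under 0.001 left 13 called, of which 2 were higher; requiring a 1.2-fold difference left 1 higher, mRpS31. Those limits, by construction, can only remove genes. In each of these settings the lower calls numbered between 11 and 13. The counts stayed within 1.5 times of the reported ones with adjustment over 1 row per gene ID, a minimum mean of 1000, centring, the lowest-mean row, tko and bonsai added, members sharing values left out, and genes with at most 10% of exon bases overlapped kept (18 called, an alternative chosen after seeing the data). Centring on the median of all rows with a mean of at least 100, which lies at -0.0083, turned the sign of mRpL24 and mRpL47, to 0.00053 and 0.00020, neither of which passed. Without division by length, 5 of the 10 genes with the highest level remained in the top 10. The median log2 fold change lay between -0.063 and -0.055 in the alternatives run. Depth per library, which limits precision, is unknown.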
